A study of Mus musculus with 10 samples.

Results

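The mitochondrial ribosomal proteins are the nuclear-encoded proteins of the ribosome that works inside mitochondria. Here they were the 77 genes, of 19938 tested, whose symbols start with Mrpl or Mrps followed by a number, each read from its brightest probe set annotated to that symbol alone. The symbols place 48 in the large subunit (Mrpl) and 29 in the small subunit (Mrps). Their expression was compared between pancreatic islets of NZO/Hl mice, an obese and diabetes-prone inbred strain, and of C3H mice (C3HeB/FeJ), with 5 arrays per strain. All mice were males of 6 weeks, kept from weaning (day 21) on high-fat chow in which fat supplied 45% of the calories. No allele was engineered in either strain. Islets of both strains were held overnight in medium with 10 mM glucose before RNA was extracted. The titles of 8 arrays hold 2 animal numbers each, NZO replicate 4 has 1 number, and NZO replicate 5 has a span of numbers. Whether animals were pooled is not stated, so the p-values measure only the spread between these samples.

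The mitochondrial ribosome translates the few messages of the mitochondrial genome, all of which encode subunits of the respiratory chain and of ATP synthase. Its rRNAs come from mitochondrial DNA, while every protein is made in the cytosol from nuclear genes and imported. Many of the proteins descend from those of the bacterial ribosome, and others have no bacterial counterpart and were added during the evolution of mitochondria. In beta cells, ATP from oxidative phosphorylation couples glucose to insulin release.

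Islet hormones were bright in both strains, with means of 12.3 in C3H and 12.5 in NZO for insulin (Ins2) and 13.3 and 13.2 for glucagon (Gcg), whereas somatostatin (Sst, -0.75) and pancreatic polypeptide (Ppy, -0.41) were called lower in NZO. Of 13 measured beta cell markers, 5 were called lower and 0 higher by limma (median -0.27): the glucose transporter gene Slc2a2 (-1.54), Ucn3 (-1.12), the zinc transporter gene Slc30a8 (-1.10), Isl1 (-0.79) and Pcsk1 (-0.27). The list was mixed, with 4 of the 13 markers above 0, the furthest being Abcc8 (0.38, SE 0.12, limma adjusted p = 0.0559). The part of the beta cell markers in the differences of the members was not tested. The mean of 24 measured acinar genes of 26 listed, which mark the enzyme-secreting exocrine pancreas, was 8.03 to 8.92 on the C3H arrays and 9.89 to 12.0 on the NZO arrays, highest on NZO replicates 4 and 5, and all 24 were called higher in NZO. None of these markers can be called absent, because the values carry no detection call. The mean of 4 measured duct genes was 8.14 to 8.26 in C3H and 8.33 to 9.26 in NZO, without overlap. That of 7 endothelial genes was 9.11 to 9.41 and 9.13 to 9.56. The mean of 7 macrophage genes was 7.75 to 8.02 in C3H and 7.85 to 9.20 in NZO. That of 7 stellate and fibroblast genes was 8.11 to 8.42 and 7.92 to 9.24. In whole islets, fewer cells of a type and less RNA per cell cannot be told apart. C3H replicate 4 stood apart: its mean over genes at or above the median of brightness was 8.96, against 9.12 to 9.18 on the other C3H arrays and 9.08 to 9.20 in NZO.

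Mrpl35 was the exception among the 77 mitochondrial ribosomal proteins taken by symbol. It was far higher in NZO, while the other members lay within 0.39 log2 units of no difference and mostly on the lower side. With limma, at a Benjamini-Hochberg adjusted p below 0.05, 1 member was called higher (Mrpl35) and 3 lower (Mrps10, Mrps28 and Mrpl41). Of all genes, 5.47% were called higher and 4.61% lower, or 10.1% in either direction, so the 4 calls among 77 members are no more than the share found among all genes. The median difference of the members, NZO minus C3H, was -0.08 log2 units, with 61 of 77 values below 0. Over all genes it was -0.02, with 55.2% of values below 0. The median SE of a member was 0.08 and the SD of a strain was typically 0.13 in C3H and 0.11 in NZO, so most single differences were no larger than the spread between arrays. A member that was not called is not thereby shown to be equal in the strains.

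**Figure D1:**
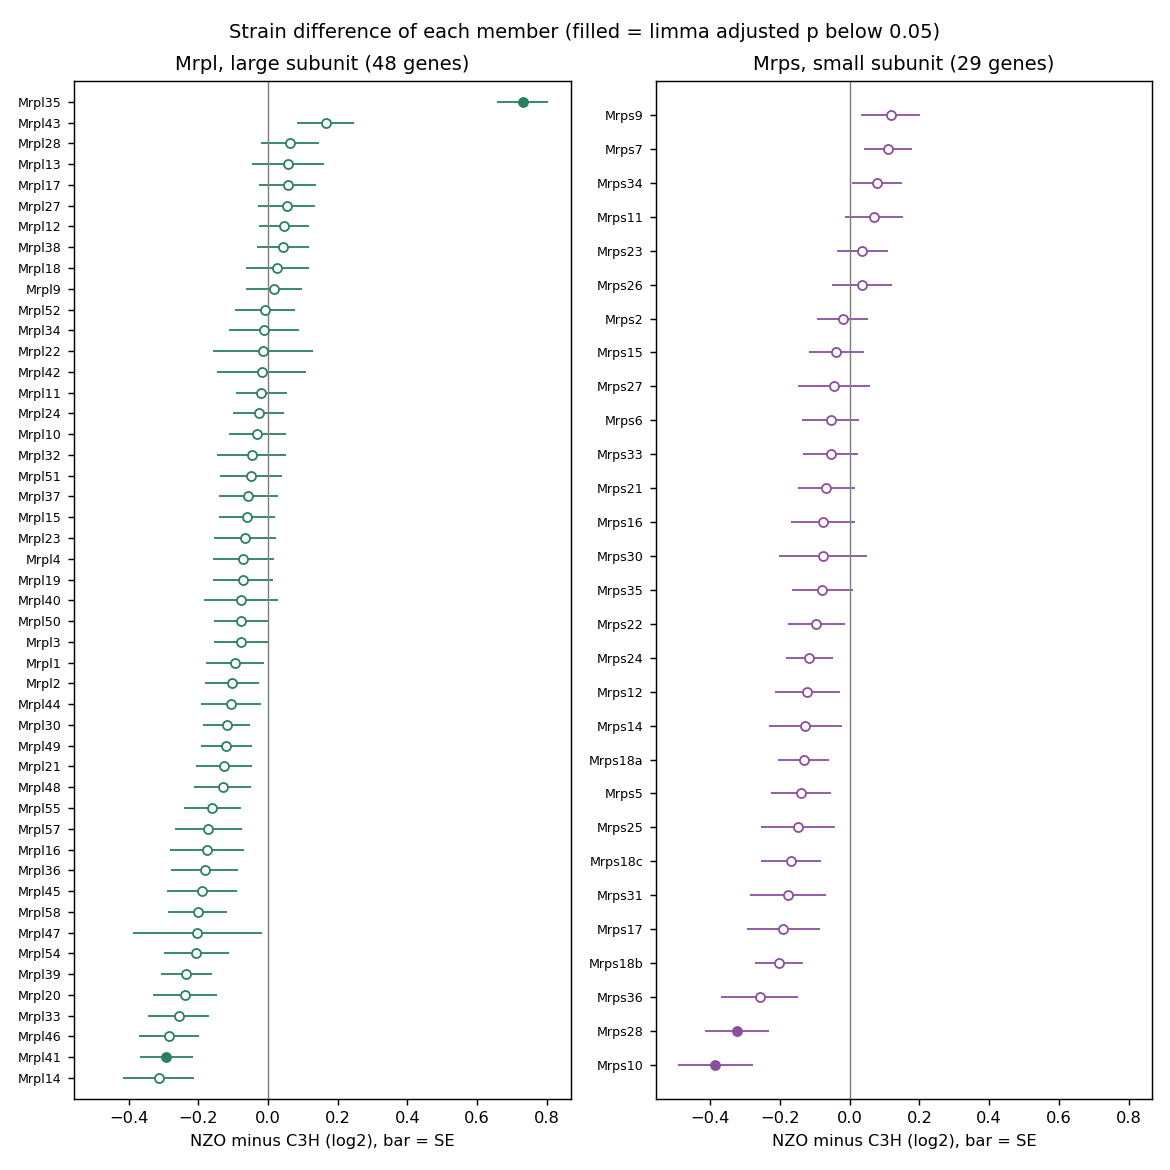
Difference of each mitochondrial ribosomal protein gene between NZO and C3H islets in log2 units on the x axis, with 1 gene per line, large subunit on the left and small subunit on the right. Points are limma differences, bars their SE, and filled points the 4 genes with an adjusted p below 0.05; Mrpl35 stands alone at 0.73 and most other points lie left of 0.

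Mrpl35 encodes a large-subunit protein that is a homologue of a bacterial ribosomal protein. Its log2 values were 8.05, 7.99, 8.01, 7.83 and 7.97 on C3H replicates 1 to 5 and 8.65, 8.67, 8.76, 8.81 and 8.61 on NZO replicates 1 to 5. All NZO arrays lay far above all C3H arrays, and each strain had a narrow range. The C3H mean was 7.97 ± 0.08 and the NZO mean 8.70 ± 0.08 (SD over 5 arrays each). NZO was thus 1.66-fold higher (0.73 log2 units, SE 0.07, limma adjusted p = 1.65e-05). Mrpl35 was read from its only probe set, and whether these probes bind alike in both strains was not tested. Of all genes, 316 had a difference at least as large in this direction. Leaving out any single array gave 0.70 to 0.75 with limma adjusted p-values up to 0.00012, and without NZO replicates 4 and 5 the difference was 0.73 (limma adjusted p = 0.000196). With the acinar mean as a covariate it was 0.65 (SE 0.16) and no longer passed (limma adjusted p = 0.0843). The acinar mean did not overlap between the strains, so this fit separates strain from acinar content poorly, and the SE grew.

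The gene lies on chromosome 6 at 71812997 to 71823784 (GRCm38.p6). None of the 3 nearest tested genes on either side was called. The nearest were Reep1 (-0.12, SE 0.10), which encodes a protein that shapes the endoplasmic reticulum, and Immt (-0.10, SE 0.07), which encodes the cristae-organising protein mitofilin. Ptcd3, which itself encodes a small-subunit protein of the mitochondrial ribosome, differed by 0.08 (SE 0.14), and Polr1a, the largest subunit of RNA polymerase I, by 0.26 (SE 0.09, limma adjusted p = 0.102).

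The start regions of Mrpl35, Mrpl41 and Mrps10 are printed to show the member called higher beside 2 members called lower (RefSeq, GRCm38.p6). Each runs 5′ to 3′ on the gene's strand from 250 bases before the start site of its window. For Mrps10 that start site lies inside the gene's span, which begins at 47368887, before the printed stretch. Capitals mark the YY1 string, the only searched string found in them. No window was at hand for Mrps28.
Mrpl35, chr6:71823751-71824034 (- strand): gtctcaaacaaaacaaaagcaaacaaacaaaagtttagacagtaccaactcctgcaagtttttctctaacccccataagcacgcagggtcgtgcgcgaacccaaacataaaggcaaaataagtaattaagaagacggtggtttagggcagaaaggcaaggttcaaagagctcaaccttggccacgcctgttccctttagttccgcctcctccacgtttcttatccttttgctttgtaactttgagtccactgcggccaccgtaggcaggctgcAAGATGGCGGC
Mrpl41, chr2:24975069-24975348 (- strand): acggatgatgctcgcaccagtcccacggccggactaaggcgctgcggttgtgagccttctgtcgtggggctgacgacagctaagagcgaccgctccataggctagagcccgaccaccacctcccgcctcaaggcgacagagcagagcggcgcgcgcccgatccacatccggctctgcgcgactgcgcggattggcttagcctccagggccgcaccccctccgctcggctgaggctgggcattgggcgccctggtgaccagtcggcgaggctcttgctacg
Mrps10, chr17:47368947-47369226 (+ strand): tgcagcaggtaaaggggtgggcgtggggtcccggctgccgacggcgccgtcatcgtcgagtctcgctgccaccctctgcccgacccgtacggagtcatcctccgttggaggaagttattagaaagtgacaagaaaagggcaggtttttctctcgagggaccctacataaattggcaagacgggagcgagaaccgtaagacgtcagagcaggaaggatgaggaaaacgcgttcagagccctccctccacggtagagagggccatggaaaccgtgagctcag

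Mrpl41, a large-subunit protein with no bacterial counterpart, was called lower in NZO. Its log2 values in C3H were 9.93, 9.73, 9.87, 9.68 and 9.89, and in NZO 9.53, 9.64, 9.50, 9.46 and 9.52. All NZO arrays lay below all C3H arrays, although NZO replicate 2 (9.64) came close to C3H replicate 4 (9.68). The C3H mean was 9.82 ± 0.11 and the NZO mean 9.53 ± 0.07 (SD over 5 arrays each; difference -0.29, SE 0.08, limma adjusted p = 0.0232). The symbol has a second, dimmer probe set, which differed by -0.24 (SE 0.07) and was also called when all probe sets were fitted (limma adjusted p = 0.0421). The gene lies on chromosome 2 at 24972470 to 24975098, but the table gives no position for either probe set.

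Mrps10, a small-subunit protein homologous to a bacterial one, had the lowest difference of all members. Its log2 values were 8.06, 7.98, 8.36, 7.99 and 8.31 in C3H and 7.52, 7.97, 7.92, 7.71 and 7.66 in NZO. The strains did not overlap, but NZO replicate 2 (7.97) lay next to C3H replicate 2 (7.98). The C3H mean was 8.14 ± 0.18 and the NZO mean 7.75 ± 0.19. The gene lies on chromosome 17 at 47368887 to 47381418. The difference was -0.39 (SE 0.11, 1.31-fold, limma adjusted p = 0.0331).

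Mrps28, also a homologue of a bacterial small-subunit protein, had log2 values of 9.29, 9.20, 9.31, 9.02 and 9.21 in C3H and 8.96, 9.09, 8.90, 8.63 and 8.83 in NZO. NZO replicate 2 lay above C3H replicate 4, so the strains overlapped. The gene lies on chromosome 3 at 8802146 to 8923857. The difference was -0.32 (SE 0.09, 1.25-fold, limma adjusted p = 0.0378). With the acinar mean as a covariate it was -0.04 (SE 0.18), whereas Mrpl41 stood at -0.24 (SE 0.17) and Mrps10 at -0.26 (SE 0.23). None of them passed in that fit. The part of the acinar transcripts in these differences was not tested beyond that fit and the left-out arrays, and the fit separates strain from acinar content poorly.

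The 3 lower calls depended on which arrays were kept. All 3 held without C3H replicate 4 (limma adjusted p-values 0.00653 for Mrpl41, 0.0229 for Mrps10 and 0.0144 for Mrps28) and without NZO replicate 2 (0.0171, 0.0146 and 0.0142). Over the 10 analyses that each leave out 1 array, Mrpl41 and Mrps10 were called in 4 and Mrps28 in 3. None of them held without NZO replicates 4 and 5, with limma adjusted p-values of 0.158 for Mrpl41, 0.201 for Mrps10 and 0.287 for Mrps28 at differences of -0.26, -0.34 and -0.22. Leaving out C3H replicate 1, 3 or 5 or NZO replicate 4 or 5 each ended all 3 calls, with limma adjusted p-values from 0.0543 to 0.102.

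**Figure D2:**
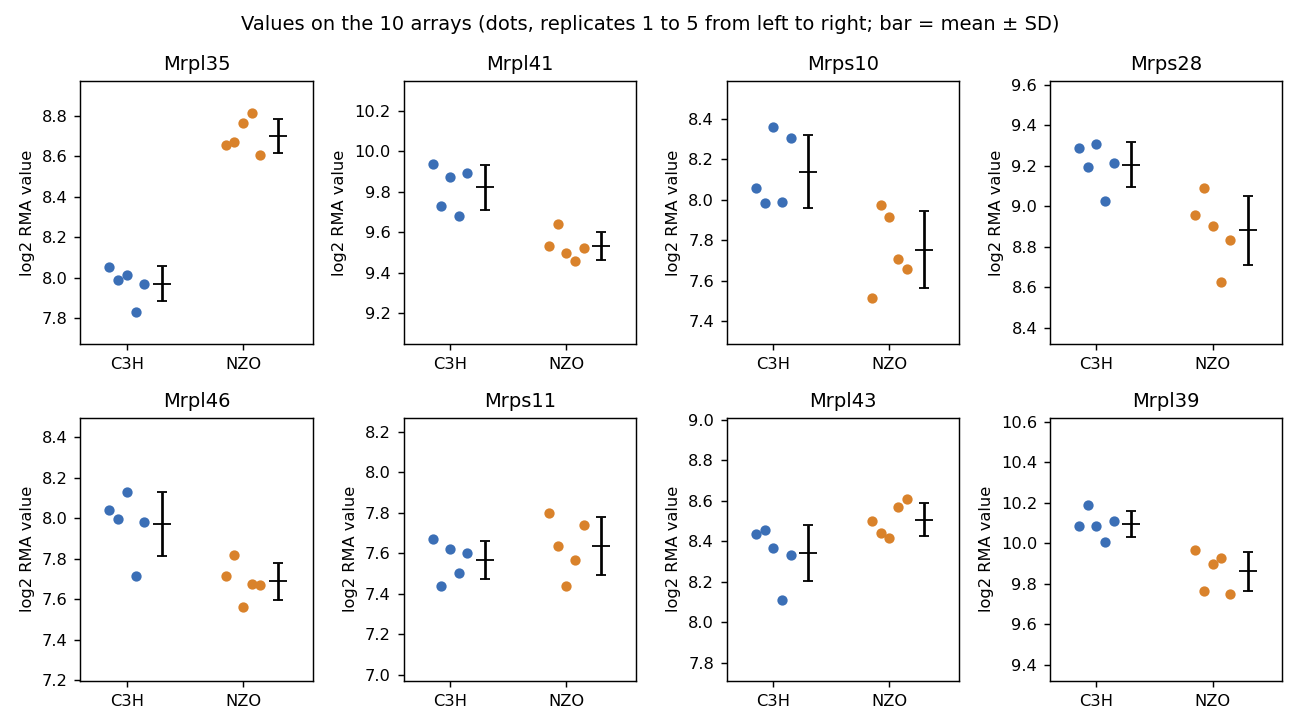
Log2 RMA values of 8 members on the 10 arrays, with the 5 C3H arrays in blue and the 5 NZO arrays in orange, the replicates of a strain from left to right, and the mean ± SD beside them; each panel spans 1.3 log2 units. The NZO values of Mrpl35 (8.61 to 8.81) lie well above those of C3H (7.83 to 8.05), Mrpl41, Mrps10 and Mrpl39 separate narrowly in the other direction, and Mrps28, Mrpl46, Mrps11 and Mrpl43 overlap.

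Another 5 members had an adjusted p between 0.05 and 0.1, all with lower values in NZO. They were picked by that range after their values were seen. Mrpl14, a bacterial homologue of the large subunit, differed by -0.31 (SE 0.10), with values from 7.89 to 8.27 in C3H and 7.63 to 8.09 in NZO. Mrpl46, a mitochondria-specific protein, differed by -0.28 (SE 0.09, limma adjusted p = 0.0518) and Mrpl33, the homologue of a bacterial protein, by -0.26 (SE 0.09). Mrpl39, which has no counterpart in the bacterial ribosome, had C3H values of 10.01 to 10.19 and NZO values of 9.75 to 9.97, so the strains did not overlap (-0.23, SE 0.07, limma adjusted p = 0.0574). Mrps18b did not overlap either, at 9.76 to 9.98 in C3H and 9.66 to 9.74 in NZO (-0.20, SE 0.07, limma adjusted p = 0.0838). In all, 4 members did not overlap with lower values in NZO (Mrps10, Mrpl41, Mrpl39 and Mrps18b) and 1 with higher values (Mrpl35), where 4.18% and 4.96% of all genes did so, or 9.14% in either direction.

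On the higher side, no member besides Mrpl35 passed. Mrpl43, a mitochondria-specific large-subunit protein, came next with 0.17 (SE 0.08, limma adjusted p = 0.261), and its values of 8.41 to 8.61 in NZO and 8.11 to 8.46 in C3H overlapped. Mrps9 differed by 0.12 (SE 0.08), Mrps7 by 0.11 (SE 0.07) and Mrps34 by 0.08 (SE 0.07). Mrps9 and Mrps7 are homologues of bacterial small-subunit proteins, and Mrps34 is mitochondria-specific. Of the 77 members, 40 lay within 0.1 log2 units of 0 and 14 beyond 0.2.

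Mammals have 3 proteins related to the bacterial small-subunit protein that Mrps18 is named for. Structures of the mammalian ribosome place Mrps18b and Mrps18c in the small subunit and Mrps18a in the large one. Mrps18a differed by -0.13 (SE 0.07), Mrps18b by -0.20 (SE 0.07) and Mrps18c by -0.17 (SE 0.09), and none passed. Mrps30, named for the small subunit but found in the large one, differed by -0.08 (SE 0.13). Mrps36, now known as a component of the oxoglutarate dehydrogenase complex rather than a ribosomal protein, differed by -0.26 (SE 0.11, limma adjusted p = 0.185). Mrpl58, a peptidyl-tRNA hydrolase built into the large subunit that can release stalled chains, differed by -0.20 (SE 0.09, limma adjusted p = 0.175).

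The brightest probe sets of the large subunit were those of Mrpl39, Mrpl10 and Mrpl58, and of the small subunit those of Mrps33, Mrps15 and Mrps21. Probe set brightness does not rank transcripts, because probes differ in how well they bind, and it serves here only to show where values sit on the scale. The Mrpl10 difference was -0.03 (SE 0.08), that of Mrps33 -0.05 (SE 0.08), that of Mrps15 -0.04 (SE 0.08) and that of Mrps21 -0.07 (SE 0.08). The dimmest was Mrpl22, with values from 5.65 to 6.49 in C3H and 5.91 to 6.40 in NZO (-0.01, SE 0.14), the only member below the 25th percentile of all genes. Mrpl42 (-0.02, SE 0.13) and Mrps27 (-0.04, SE 0.10) were also among the dimmest. In all, 74 of the 77 members lay above the median brightness of all genes.

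The median strain differences of the large and the small subunit were close. The median was -0.07 for the 48 Mrpl genes, of which 38 were below 0, 1 was called higher and 1 lower. It was -0.08 for the 29 Mrps genes, of which 23 were below 0, 0 were called higher (also 0 at an unadjusted p below 0.05) and 2 were called lower. Calls in either direction made up 4.17% of the Mrpl and 6.90% of the Mrps genes, against 10.1% of all genes. The mean of the Mrpl genes was 8.76, 8.75, 8.79, 8.50 and 8.73 on C3H replicates 1 to 5 and 8.70, 8.66, 8.60, 8.64 and 8.58 on NZO replicates 1 to 5. The mean of the Mrps genes was 8.76, 8.73, 8.78, 8.51 and 8.73 in C3H and 8.66, 8.63, 8.60, 8.62 and 8.56 in NZO. In both subunits C3H replicate 4 was the lowest of all 10 arrays and the other 4 C3H arrays lay above every NZO array.

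The Mrpl mean minus the Mrps mean, which asks whether the subunits moved apart, was -0.0079 to 0.011 on the C3H arrays and 0.00019 to 0.040 on the NZO arrays. These ranges overlap. The strain means of this quantity differed by 0.02, more than the pooled SD within a strain of 0.012. No p is given for a mean over chosen genes. Mrpl35 (0.73) is 1 of the 48 Mrpl genes in these means and by itself widens the gap. The gap was not computed without Mrpl35, so a shift of the whole subunit is not shown. Taking medians over the members in place of means gave -0.01, the opposite sign. That value is far smaller than the SD of the median-based quantity over arrays, 0.077 in C3H and 0.095 in NZO, so its sign carries no weight. Assigning Mrps18a and Mrps30 to the large subunit and leaving out Mrps36 gave 50 large-subunit members with a median of -0.08 and 26 small-subunit members with a median of -0.08. Under this assignment the large minus the small mean was -0.062 ± 0.018 in C3H and -0.051 ± 0.021 in NZO (SD over arrays). The strain means were then closer together than the SD of either strain.

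**Figure D3:**
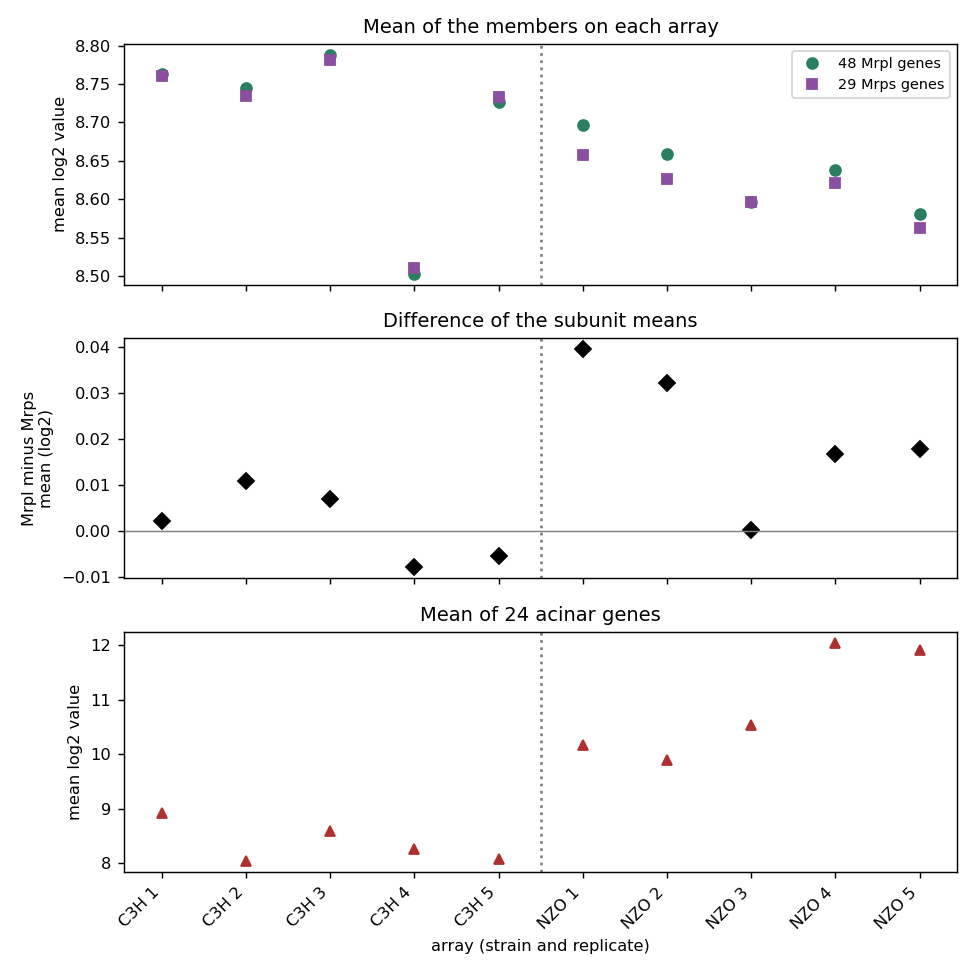
Mean log2 value of the 48 Mrpl genes (circles) and 29 Mrps genes (squares) on each array, their difference in log2 units, and the mean log2 value of 24 acinar genes, with the strains parted by a dotted line. Both subunit means are lowest on C3H replicate 4 (8.50 and 8.51) and otherwise lower in NZO, and the acinar mean is highest on NZO replicates 4 and 5.

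Division by evolutionary origin gave medians of -0.07 for 48 homologues of bacterial ribosomal proteins and -0.08 for 28 mitochondria-specific proteins. Within the large subunit the values were -0.06 for 30 bacterial homologues, of which 22 were below 0, and -0.11 for 18 mitochondria-specific proteins, of which 16 were below 0. Within the small subunit as named, the order was the opposite, at -0.12 for 18 bacterial homologues and -0.07 for 10 mitochondria-specific proteins. Among the mitochondria-specific proteins, Mrpl41 alone was called (3.57% of them, against 10.1% of all genes in either direction).

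How many members were called lower depended on C3H replicate 4. It was the lowest C3H array for 67 of the 77 members. With it left out, 14 members were called lower and 1 higher, where 7.89% of all genes were called lower and 5.65% higher, and the median difference of the members was -0.13 while that of all genes was 0.0026. The 14 included all 3 of the lower calls above, and Mrpl14, Mrpl20, Mrpl33, Mrpl39, Mrpl46, Mrpl54, Mrpl58, Mrps18b, Mrps18c, Mrps31 and Mrps36. Array weights, with which limma gave this array a weight of 0.191 against 0.588 to 2.83 for the others, called 20 members lower, where 11.6% of all genes were lower. With this array and NZO replicates 4 and 5 all left out, 3 members were called lower (Mrpl41, Mrpl46 and Mrps18b) beside Mrpl35 higher, where 4.73% and 4.05% of all genes were lower and higher.

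The shift of the members was also set against bright genes in general. The mean of the members minus that of all genes at or above the median brightness was -0.45 to -0.36 on the C3H arrays and -0.52 to -0.43 on the NZO arrays. Only NZO replicate 2 (-0.43) lay within the C3H range. Genes at or above the median brightness had a median difference of -0.02, with 55.1% of values below 0. With the acinar mean as a covariate, the median of the members was -0.07, 48 of 77 were below 0 and 0 were called lower and 0 higher, where 0.471% and 0.577% of all genes were. The acinar mean did not overlap between the strains, so this covariate separates strain from acinar content poorly. The part of acinar, duct, endothelial, macrophage or stromal transcripts in the shift was not tested beyond the left-out arrays and this covariate.

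Leaving out C3H replicate 1, 2, 3 or 5 left 0, 2, 0 and 0 members called lower, where 3.36%, 3.39%, 3.21% and 3.37% of all genes were lower. Leaving out NZO replicate 1, 2, 3, 4 or 5 left 4, 5, 1, 0 and 0, where 5.33%, 4.83%, 3.58%, 3.55% and 3.34% of all genes were. Without NZO replicates 4 and 5 together, 0 members and 2.47% of all genes were lower. Filters at the 25th percentile and the median of brightness gave 5 and 7 members, against 6.29% and 8.08% of the genes tested. Centring arrays on their medians gave 2 members and 3.8% of all genes, and centring on bright genes 8 members and 5.53%. The mean of all probe sets gave 3 members and 4.56%, and a variance trend 4 members and 4.93%.

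**Figure D4:**
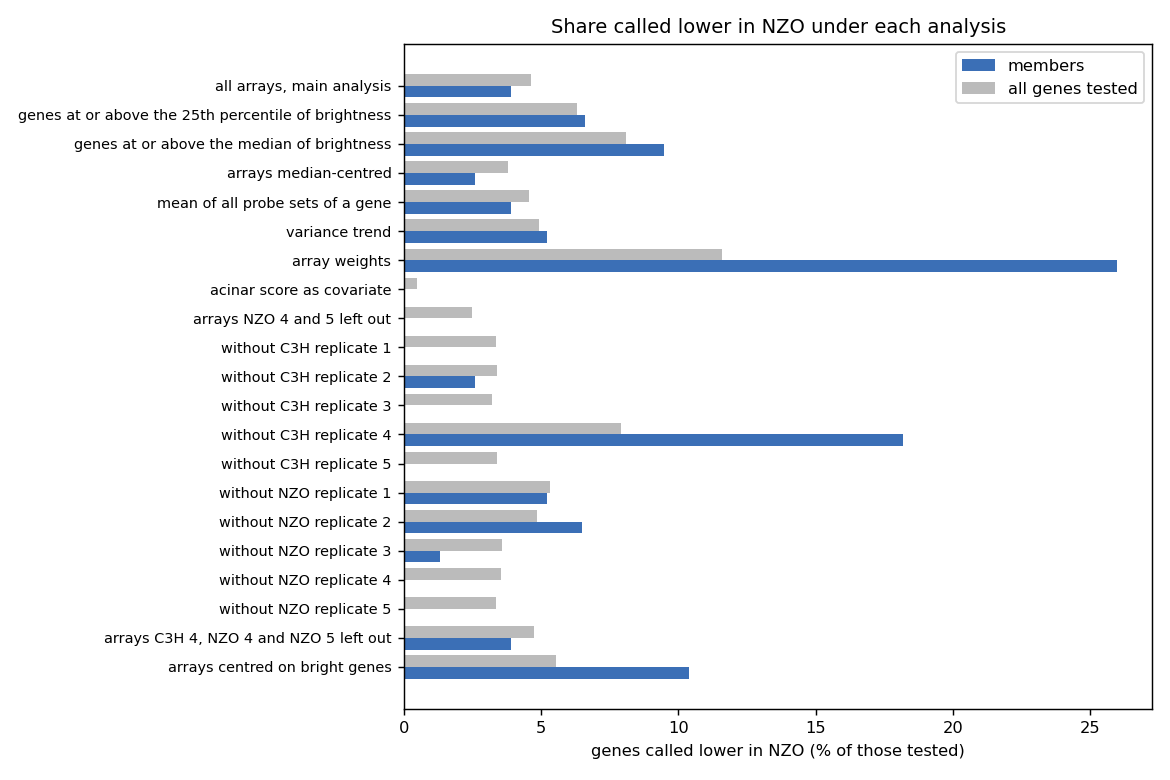
Percent of the members (blue) and of all genes tested (grey) called lower in NZO by limma at an adjusted p below 0.05, for the main analysis and each alternative. The members exceed all genes most with array weights (20 members) and without C3H replicate 4 (14 members). None is called lower without NZO replicates 4 and 5 together or with the acinar mean as a covariate. The same holds without C3H replicate 1, 3 or 5 alone and without NZO replicate 4 or 5 alone.

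Of the 77 members, 8 had several probe sets of their own symbol. Among the called members only Mrpl41 did, while Mrpl35, Mrps10 and Mrps28 had 1 each. The probe sets of Mrpl23 (-0.07 and -0.06), Mrps33 (-0.05 and -0.05), Mrps36 (-0.26 and -0.31) and Mrps5 (-0.14 and -0.18) gave nearly the same difference. Those of Mrpl27 (0.05 and 0.11) and Mrpl51 (-0.05 and -0.14) kept their sign. The probe sets of Mrpl47 differed in sign (-0.20, SE 0.19, and 0.11, SE 0.11), neither passed, and the dimmer had a mean of 6.10. Ribosomal protein genes often have processed copies elsewhere in the genome, so which copy such probe sets measured is uncertain.

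The members lie on 17 chromosomes. None starts in the 30 to 46 Mb interval of chromosome 7 that the study set out to examine for C3H-specific variants, and 6 lie elsewhere on that chromosome. Mrps12, a homologue of a bacterial protein of the decoding site, lies closest at 28739641 to 28741821 and differed by -0.12 (SE 0.09). The others were Mrpl46 (-0.28), Mrps11 (0.07, SE 0.08), Mrpl48 (-0.13, SE 0.08), Mrpl17 (0.06, SE 0.08) and Mrpl23 (-0.07, SE 0.09).

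Mitochondrial ribosomal protein genes often share a promoter region with a gene on the other strand. RefSeq start windows of GRCm38.p6, which run from 250 bases before to 50 bases after a start site, were at hand for 68 of the 77 members. Of these, 23 (33.8%) had the start site of a gene on the opposite strand within 500 bases upstream, against 12.9% of 15563 tested genes with a window. Of 21 such neighbours that were tested, 1 was called higher and 1 lower, where 10.1% of all genes were called in either direction. Tmem63b, which encodes a membrane ion channel and is the neighbour of Mrpl14, was called higher (0.37, SE 0.07, limma adjusted p = 0.00355), whereas Mrpl14 differed by -0.31. Cyb5rl, 128 bases from Mrpl37, was called lower (-0.25, SE 0.07, limma adjusted p = 0.0319), and Mrpl37 differed by -0.06 (SE 0.08). Mrpl46 and Mrps11 are each other's neighbours, with starts 42 bases apart, and differed by -0.28 and 0.07. Mrps12 is paired with Sars2, the mitochondrial seryl-tRNA synthetase (-0.04, SE 0.09), and Mrpl43 with Twnk, the mitochondrial DNA helicase (0.01, SE 0.07).

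The start regions were searched on both strands for 4 letter strings known from promoters of mitochondrial genes or of growth-regulated genes, none of which contains another. The ETS core CCGGAAG, bound by GABP among others, was in 25 of 74 member windows (33.8%) and in 12.1% of 19116 windows of tested genes. A YY1 string, capitalised in the Mrpl35 start region above, was in 5 (6.76%) against 0.947%, the NRF1 palindrome in 3 (4.05%) against 1.45%, and the E-box CACGTG in 7 (9.46%) against 8.26%. Windows of 1 gene can overlap, and 3 of the 7 with an E-box are windows of Mrpl2 around the same match. Counted by gene, the E-box was in 5 of 68 members (7.35%) and 9.52% of 15563 genes, so the order turned. By gene the ETS core was in 36.8% against 13.6%, the YY1 string in 7.35% against 1.14% and the NRF1 string in 4.41% against 1.62%. The median GC content was 58.5% in the member windows and 57.7% in all. Among the called members with a window, Mrpl35 alone held a match, to the YY1 string, which begins 24 bases into the transcript counting the start site as 1. The ETS string was at Mrpl33, Mrpl43, Mrpl58, Mrps12 and Mrps18b, among others named above, and the NRF1 string at Mrpl39, Mrpl9 and Mrpl32. The GC content of the whole windows, which run beyond the printed stretches, was 48% for Mrpl35, 68% for Mrpl41 and 58.3% for Mrps10. A match is a description of letters only.

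Proteins of the same ribosome with other names were fixed as a list of 5, of which 4 were measured. Gadd45gip1, a large-subunit protein needed to insert new chains into the inner membrane, was called higher in NZO, at 8.15 ± 0.13 in C3H and 8.48 ± 0.07 in NZO (0.32, SE 0.08, 1.25-fold, limma adjusted p = 0.016). Dap3, the GTP-binding protein of the small subunit, differed by -0.23 (SE 0.09), Ptcd3 by 0.08 and Chchd1 by -0.01, and none of these passed.

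Of 27 measured factors that assemble the mitochondrial ribosome, 2 were lower and 1 higher in NZO, with a median of -0.08. Called in either direction were thus 11.1% of these factors, against 10.1% of all genes. Tfb1m, the methyltransferase that modifies the small-subunit rRNA, was 1.38-fold lower (-0.46, SE 0.11, limma adjusted p = 0.0134) and the endoribonuclease gene Ybey was lower by 1.22-fold (-0.28, SE 0.07). Trub2, a pseudouridine synthase, was 1.21-fold higher (0.28, SE 0.08). Of 15 translation factors, none was called (median -0.07), among them the elongation factor Tufm (-0.09, SE 0.09). Of 16 mitochondrial aminoacyl-tRNA synthetases, which charge the tRNAs, Rars2 was 1.36-fold lower (-0.44, SE 0.10, limma adjusted p = 0.012) and no other was called (median -0.08). The share of synthetases called was 6.25%.

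Of 14 genes of mitochondrial transcription and DNA maintenance, none was called (median -0.07), and Polrmt (-0.01, SE 0.07) and Tfam (-0.0033, SE 0.11) were near 0. Of 12 nuclear activators of mitochondrial genes, Esrrg, an orphan receptor of oxidative metabolism, was 1.37-fold higher (0.45, SE 0.11, limma adjusted p = 0.0145), and the list median was 0.08. Nrf1 (-0.08, SE 0.09), Gabpa (0.07, SE 0.10) and Yy1 (0.10, SE 0.07), whose products bind the strings searched above, did not pass. The cytosolic ribosomal proteins, 55 genes by symbol, had a median of -0.03, with 2 called higher and 1 lower. Called in either direction were 8.33% of the activators and 5.45% of the cytosolic ribosomal proteins, against 10.1% of all genes. No test compared these lists with the members.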

How the data were processed

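Total RNA (150 ng, integrity number above 8) was labelled with biotin and hybridised to Affymetrix arrays, per the labels' protocols. Each probe set has 1 log2 value per array, as deposited. The submitters' processing notes name Expression Console and RMA, which normalizes the arrays jointly and compresses small signals. Software version and genome build: not given in the sources used here. The 35556 probe sets included 21789 annotated to exactly 1 symbol, 1621 to several and 12146 with none here. The brightest per symbol was kept (19938 genes, no filter on dim genes). All members matched GRCm38.p6 by Entrez ID.

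Differences were fitted for all genes with lmFit and eBayes of limma 3.58.1 (R 4.3.3), and two-sided p-values were adjusted by Benjamini-Hochberg across the genes tested. The labels give no batch. The number of arrays limits the precision. The fit was tested on simulated data. Replicate numbers follow deposition order. Members and lists were chosen with earlier results of these data known. Genes named are called members, the 5 highest and 5 lowest differences, the 3 brightest and 3 dimmest of each subunit, members on chromosome 7, the Mrps18 paralogs, Mrps30 and Mrps36, and up to 6 called genes per pathway list. Others stand for their values only. Alternatives were brightness filters, centring, averaged probe sets, a variance trend, array weights, the acinar mean as a covariate and left-out arrays. Centring on bright genes and leaving out 3 arrays together were added after seeing the data.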

Additional observations from a re-analysis of the deposited data

Results flagged for a closer look

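Of 66 sets of 5 arrays examined (the named members, both subunit means and their difference in each strain), 8 had an array set apart by more than 0.71 of the range, where chance gives about 1 in 20 for a single set. The sets share the same arrays, and the subunit means include the named members, so the sets are not independent. The count of 8 therefore cannot be measured against that rate. In 7 of the 8 the array was C3H replicate 4, lower than the other C3H arrays. Its Mrpl mean was 8.50 against 8.73 to 8.79, and its Mrps mean 8.51 against 8.73 to 8.78. Its value of Mrps15 was 9.77 against 9.97 to 10.03, of Mrps18b 9.76 against 9.92 to 9.98, of Mrps18c 8.70 against 8.99 to 9.10, of Mrps33 9.96 against 10.22 to 10.29 and of Mrps9 8.15 against 8.43 to 8.50. In NZO, Mrps7 was 9.05 on replicate 1 against 9.14 to 9.17.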

How the results depend on the processing

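Mrpl35 stayed called and higher in 19 of 20 alternatives (0.65 to 0.75), the exception being the acinar mean as a covariate, and the median of the members stayed between -0.14 and -0.06. The number of members called lower was 3 in the main analysis. It was 5 and 7 with the brightness filters at the 25th percentile and the median (6.29% and 8.08% of genes tested). Centring arrays on bright genes gave 8 (5.53% of all genes). Array weights gave 20, where 4125 genes were called in either direction and 2310 of them lower. Without NZO replicates 4 and 5 it was 0 (1105 genes, 492 lower). Under the acinar covariate it was 0, with 0 higher (209 genes, 94 lower). Leaving out 1 array at a time gave 0 to 14 members lower and 1441 to 2701 genes called in either direction. Single lower calls therefore depend on the arrays used. The Mrpl minus Mrps difference was 0.02 to 0.03 with 1 array left out and -0.012 with medians (well within the SD of either strain), always with Mrpl35 included. No paired analysis was possible because the replicate numbers only follow the order of deposition and the labels pair no arrays. With 5 arrays per strain and a median SE of 0.08 log2 units per member, most members' differences are about the size of their error. The values carry no detection call, so signal over background is not known for the dimmest member, Mrpl22.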
